A study of Mus musculus with 8 samples.

Results

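Granzymes, perforin and the granule membrane protein NKG7 make up the cargo and the wall of the secretory granules with which natural killer (NK) cells and cytotoxic T cells kill target cells. The 10 genes described here, *Gzma*, *Gzmb*, *Gzmc*, *Gzmd*, *Gzme*, *Gzmf*, *Gzmg*, *Gzmk*, *Prf1* and *Nkg7*, were chosen by name from 27179 genes counted in each library. Of these, 5 (*Gzma*, *Gzmb*, *Gzmc*, *Prf1* and *Nkg7*) passed the filter on low counts, which left 16658 genes to be tested, and 5 did not. The 5 others are accounted for by their raw counts.

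RNA was sequenced from whole uteri of mice at postnatal day 10 (PD10), with one library per mouse, to compare *Ezh2 Amhr2*-Cre cKO mice with controls. The 4 control mice (Ctrl) had the genotype Ezh2 f/f, a floxed *Ezh2* allele without Cre recombinase. The 4 cKO mice had the genotype Ezh2 f/f; Acre, in which Cre is driven by *Amhr2*, a gene of the mesenchyme of the developing female tract, so that *Ezh2* is deleted in the mesenchyme-derived cells and not in the whole organ. All mice shared one mixed strain background. EZH2 is the methyltransferase of Polycomb repressive complex PRC2, which silences genes by methylating histone H3. *Ezh2* itself, counted over the whole gene, averaged 45.0 ± 8.70 CPM (counts scaled to the size of each library) in Ctrl and 36.8 ± 4.41 CPM in cKO (SD, n = 4), a log2 fold change of -0.29 with an adjusted p of 0.247 by edgeR, so these gene-level counts alone did not separate the genotypes. Markers of the tissue were abundant, with a mean of 3690 CPM in Ctrl and 3755 CPM in cKO for *Acta2* of smooth muscle. Of 14 uterine markers, 3 were lower in cKO by adjusted p and 0 higher: *Hoxa10* (log2 fold change -0.62, adjusted p 0.000377), *Hoxa11* (-0.49, 0.00522) and *Amhr2* (-0.73, 0.0148), where 2.71% of all genes tested passed on the lower side and 2.62% on the higher side. The 3 became 1 with a score of fat cell markers as a covariate and 0 without cKO replicates 1, 2 and 3.

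A cytotoxic cell releases its granules into the contact with a target. Perforin, the product of *Prf1*, forms pores, and through them the granzymes, a family of serine proteases, enter the target and cleave proteins whose loss leads to cell death. Granzyme A (*Gzma*) cleaves after basic residues and granzyme B (*Gzmb*) after aspartate, while granzymes C to G (*Gzmc* to *Gzmg*) are rodent proteases encoded next to *Gzmb*. NK cells are the main lymphocytes of the mouse uterus in pregnancy, and the granules of uterine NK cells are rich in perforin and granzymes.

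The genes lie at 4 places in GRCm38, the build of the count files, by RefSeq coordinates. *Gzma* (chr13:113093824-113100981) and *Gzmk* (chr13:113171630-113180965) are neighbours on the minus strand. A cluster on the minus strand of chromosome 14 holds, in this order, *Gzme* (chr14:56117619-56120625), *Gzmd* (chr14:56129556-56132603), *Gzmg* (chr14:56156581-56159579), *Gzmf* (chr14:56205263-56211407), *Gzmc* (chr14:56231397-56241647) and *Gzmb* (chr14:56258836-56262334). *Prf1* (chr10:61297751-61304684) and *Nkg7* (chr7:43437138-43438246) stand alone on the plus strand. *Gzma* lies within *Cdc20b*, a gene of the opposite strand, which held at most 0.0824 CPM in any library.

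Coding sequences show how far reads of the family can be told apart. The lines below give 42 coding bases, 5′ to 3′ on the coding strand, from GENCODE transcripts of GRCm38, around the codon of the serine that carries out catalysis, which stands in capitals. They are shown because they lie in one of the most conserved stretches of the family and still differ between genes.
*Gzma* serine codon: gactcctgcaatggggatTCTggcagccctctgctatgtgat
*Gzmk* serine codon: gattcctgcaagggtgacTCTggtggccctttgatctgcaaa
*Gzmb* serine codon: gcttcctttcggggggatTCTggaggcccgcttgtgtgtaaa
*Gzmc* serine codon: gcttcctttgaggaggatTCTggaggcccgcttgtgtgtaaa
*Gzmd* serine codon: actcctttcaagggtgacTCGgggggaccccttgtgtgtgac
*Gzmf* serine codon: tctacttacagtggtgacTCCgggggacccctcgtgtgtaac
Over the whole coding sequence, *Gzma* and *Gzmb* were identical at 54.2% of aligned bases, and *Gzmb* and *Gzmc* at 75.7%. The closest pair, *Gzmd* and *Gzme*, reached 93.3%. No run of 50 bases in the transcripts of *Gzma*, *Gzmb*, *Gzmk*, *Prf1* or *Nkg7* occurred in another gene, whereas 4.14% of such runs in *Gzmc*, 7.36% in *Gzmf*, 19.8% in *Gzmg*, 20.6% in *Gzme* and 21.9% in *Gzmd* were shared within the family. How shared reads were counted is not given in the sources used here, so the values of *Gzmc* to *Gzmg* carry this uncertainty.

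Promoters of the 5 tested genes and of *Gzmd* follow, each as 150 bases at or near the start of transcription on its 5′ side, from RefSeq coordinates and sequence of GRCm38.p6. They are shown because all 5 genes were lower in every cKO library than in any Ctrl library, and because *Gzmd* resembles *Gzmc* in sequence but not in its counts. Capitals mark the letters TGTGGT, a core of sites for RUNX factors, and TCACAC, a core of sites for T-box factors such as T-bet, searched on both strands (ACCACA and GTGTGA on the strand shown). For *Prf1*, *Nkg7* and *Gzmd* the window ends 85, 65 and 15 bases before the table's start, to stay clear of annotated transcripts. The *Gzmc* start is that of the promoter table and lies inside the longest gene model.
*Gzma* promoter, chr13:113100982-113101131, minus strand: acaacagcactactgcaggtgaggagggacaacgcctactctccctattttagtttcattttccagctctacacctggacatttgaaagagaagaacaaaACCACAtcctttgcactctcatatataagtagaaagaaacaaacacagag
*Gzmb* promoter, chr14:56262335-56262484, minus strand: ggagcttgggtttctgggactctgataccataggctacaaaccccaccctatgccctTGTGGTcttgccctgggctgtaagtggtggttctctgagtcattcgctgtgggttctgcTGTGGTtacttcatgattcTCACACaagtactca
*Gzmc* promoter, chr14:56234658-56234807, minus strand: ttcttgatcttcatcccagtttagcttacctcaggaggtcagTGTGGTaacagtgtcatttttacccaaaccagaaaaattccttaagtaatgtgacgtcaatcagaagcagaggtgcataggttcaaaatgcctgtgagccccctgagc
*Gzmd* promoter, chr14:56132609-56132758, minus strand: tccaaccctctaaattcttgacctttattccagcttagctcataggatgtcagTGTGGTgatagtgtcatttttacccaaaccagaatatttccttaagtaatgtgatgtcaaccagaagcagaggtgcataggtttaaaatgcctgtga
*Prf1* promoter, chr10:61297601-61297750, plus strand: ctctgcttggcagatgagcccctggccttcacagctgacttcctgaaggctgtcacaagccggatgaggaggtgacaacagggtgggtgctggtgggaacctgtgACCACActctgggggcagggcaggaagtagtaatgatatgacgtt
*Nkg7* promoter, chr7:43436923-43437072, plus strand: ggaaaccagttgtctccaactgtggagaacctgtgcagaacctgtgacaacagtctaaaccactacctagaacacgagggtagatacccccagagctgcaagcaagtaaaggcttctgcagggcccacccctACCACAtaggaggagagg
In windows of 250 bases, TGTGGT occurred in 14.05% and TCACAC in 12.3% of 32851 promoters of all genes. Among the 5 tested genes, TGTGGT was found once before *Gzma*, *Prf1* and *Nkg7* and at 2 places each before *Gzmb* and *Gzmc*, and TCACAC was found before *Gzmb* and *Nkg7*. The TCACAC match of *Nkg7* lies 12 to 7 bases before the table's start. It falls in the 65 bases left out above to stay clear of annotated transcripts, and is not in the sequence shown. These are matches of letters and say nothing of binding. The *Gzmc* and *Gzmd* windows were identical at 80.5% of aligned bases, and both held TGTGGT at 2 places, although *Gzmd* had no count in any library.

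Granule genes were lower in cKO uteri. All 5 tested genes were lower in every cKO library than in any Ctrl library, between 3.21-fold (*Gzmb*) and 5.23-fold (*Gzmc*) by fitted values. Of the 5, *Gzma*, *Gzmb*, *Gzmc* and *Nkg7* were differentially expressed (DE), which required an adjusted p under 0.05 together with a fold change of more than 2. Over all genes tested, 0.636% were DE and lower in cKO, and in 6.43% every cKO library was under every Ctrl library. The 5 genes had a median log2 fold change of -2.14, against 0.00044 over all genes tested, of which 49.9% had a negative value. In RNA of a whole organ, fewer cells of a type and less RNA per cell cannot be told apart. Libraries held 25287141 to 36685807 counts, and after TMM scaling of these totals 3 counts, the limit set by a count of 0, stand for 0.0824 to 0.117 CPM, and this limit covers counting error only.

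**Figure D1:**
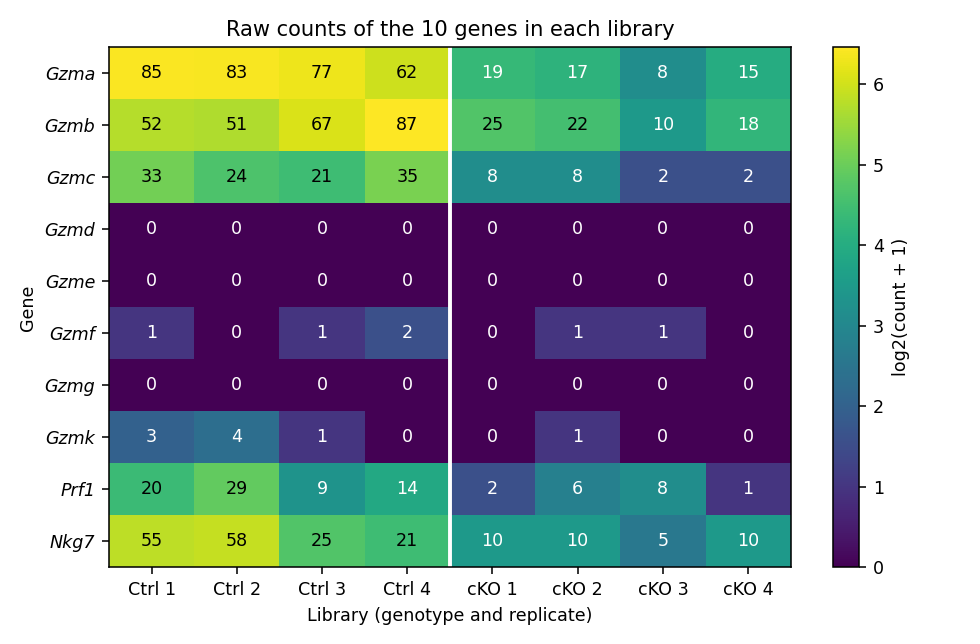
Raw counts of the 10 genes (rows) in the 8 libraries (columns), with the count printed in each cell and coloured by log2(count + 1). *Gzma* runs from 62 to 85 counts in Ctrl and from 8 to 19 in cKO, while *Gzmd*, *Gzme* and *Gzmg* are at 0 in every library.

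*Gzma*, the granzyme with the highest mean in Ctrl, had 85, 83, 77 and 62 counts in Ctrl replicates 1 to 4, and 19, 17, 8 and 15 in cKO replicates 1 to 4. After TMM normalization these were 2.68, 3.21, 2.75 and 1.70 CPM in Ctrl and 0.738, 0.569, 0.246 and 0.525 CPM in cKO. The lowest Ctrl library, replicate 4, was still above the highest cKO library, replicate 1, and cKO replicate 3 was the lowest of all. The means were 2.59 ± 0.634 CPM and 0.520 ± 0.204 CPM (SD), a log2 fold change of -2.32 with a standard error of 0.30 and an adjusted p of 0.00080 by edgeR's quasi-likelihood test with Benjamini-Hochberg adjustment over all genes tested.

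*Gzmb*, whose protease activates caspases in target cells, had 52, 51, 67 and 87 counts in Ctrl and 25, 22, 10 and 18 in cKO. These were 1.64, 1.97, 2.39 and 2.39 CPM against 0.971, 0.736, 0.308 and 0.630 CPM. The genotypes did not overlap, and Ctrl replicate 4, the lowest Ctrl library for *Gzma*, was among the 2 highest for *Gzmb*. The means were 2.10 ± 0.363 CPM and 0.661 ± 0.275 CPM, with a log2 fold change of -1.68, a standard error of 0.29 and an adjusted p of 0.00515 by edgeR.

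*Gzmc* lies beside *Gzmb* in the cluster and had 33, 24, 21 and 35 counts in Ctrl and 8, 8, 2 and 2 in cKO. Its levels were 1.04, 0.928, 0.749 and 0.961 CPM in Ctrl and 0.311, 0.268, 0.0616 and 0.0701 CPM in cKO. The 4 Ctrl libraries were close together, while the cKO libraries fell into 2 near 0.3 CPM and 2 under the limit set by a count of 0. The means were 0.920 ± 0.123 CPM and 0.178 ± 0.130 CPM, with a log2 fold change of -2.39, a standard error of 0.41 and an adjusted p of 0.00525 by edgeR.

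*Nkg7*, a membrane protein of the granules needed for their release, had 55, 58, 25 and 21 counts in Ctrl and 10, 10, 5 and 10 in cKO. Its levels were 1.73, 2.24, 0.892 and 0.577 CPM in Ctrl and 0.388, 0.335, 0.154 and 0.350 CPM in cKO. Ctrl replicates 1 and 2 were above Ctrl replicates 3 and 4, and the genotypes did not overlap. The means were 1.36 ± 0.765 CPM and 0.307 ± 0.104 CPM, with a log2 fold change of -2.14, a standard error of 0.46 and an adjusted p of 0.0185 by edgeR. This call was lost in 3 of the 8 fits that left out 1 library, those without Ctrl replicate 1, cKO replicate 2 or cKO replicate 3, with adjusted p values of 0.0625, 0.0552 and 0.0613, and also with limma-voom (0.0542) and with a score of fat cell markers as a covariate (0.223). Over all alternatives its adjusted p ranged from 0.000508 to 0.744.

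*Prf1*, the pore-forming partner of the granzymes, had 20, 29, 9 and 14 counts in Ctrl and 2, 6, 8 and 1 in cKO. Its levels were 0.631, 1.12, 0.321 and 0.384 CPM in Ctrl and 0.0777, 0.201, 0.246 and 0.0350 CPM in cKO. The genotypes did not overlap, but Ctrl replicate 3 and cKO replicate 3 were separated by a single raw count. The means were 0.615 ± 0.364 CPM and 0.140 ± 0.0999 CPM, and the log2 fold change of -2.03 with a standard error of 0.55 had an adjusted p of 0.0515 by edgeR, so *Prf1* was not DE. Without Ctrl replicate 3 its adjusted p was 0.0494, with DESeq2 it was 0.0198 and with limma-voom 0.0636, and over all alternatives it ranged from 0.0198 to 0.427.

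**Figure D2:**
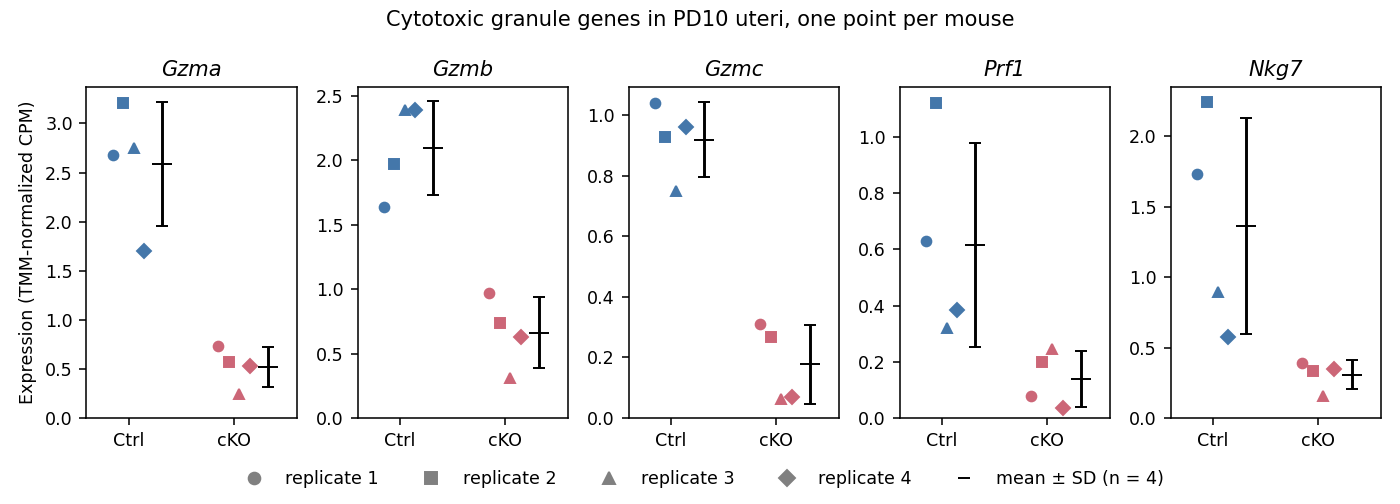
TMM-normalized CPM (vertical axes, each starting at 0) of the 5 tested genes in Ctrl and cKO uteri, with a symbol for each replicate number and the mean ± SD (n = 4) in black. In each panel all 4 cKO points lie under all 4 Ctrl points, with the narrowest gap for *Prf1*, between 0.321 and 0.246 CPM.

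A two-sided exact permutation test of the mean log2(CPM + 0.1) gave p = 0.0286 for each of the 5 genes, the smallest p that the 70 arrangements of 4 against 4 libraries can give. The value was the same with a pseudocount of 1.

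Granzymes below the filter could not be compared by level. *Gzmk*, the neighbour of *Gzma* and a granzyme of memory T cells, had 3, 4, 1 and 0 counts in Ctrl and 0, 1, 0 and 0 in cKO, with an exact permutation p of 0.143. *Gzmf* had 1, 0, 1 and 2 counts in Ctrl and 0, 1, 1 and 0 in cKO, with an exact permutation p of 0.314. No count of *Gzmd*, *Gzme* or *Gzmg* was found in any library, which allows up to 0.0824 to 0.117 CPM by the limit of 3 counts. The upper end of an exact 95% Poisson interval was 0.101 to 0.143 CPM. At this depth, a difference between the genotypes was not detectable for these 5 genes. Within the cluster on chromosome 14, counts were therefore found mainly for the end that holds *Gzmb* and *Gzmc*.

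Levels of different genes were compared per kilobase of exon, as CPM per kb. In Ctrl, *Gzma* stood highest at 2.57 ± 0.630, followed by *Nkg7* at 1.49 ± 0.837, *Gzmb* at 1.46 ± 0.253, *Gzmc* at 1.03 ± 0.138 and *Prf1* at 0.238 ± 0.141 CPM per kb (SD, n = 4). Only *Gzmc* and *Prf1* were neighbours in this order whose libraries did not overlap. In cKO the order was *Gzma* (0.517 ± 0.203), *Gzmb* (0.461 ± 0.192), *Nkg7* (0.336 ± 0.114), *Gzmc* (0.199 ± 0.146) and *Prf1* (0.0542 ± 0.0387), and the libraries of every pair of neighbours overlapped.

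Summed over the 5 genes, the level was 6.01 to 9.48 CPM in Ctrl and 1.02 to 2.49 CPM in cKO. The make-up of this sum overlapped between the genotypes for each gene. *Gzma* contributed 28.3% to 38.7% in Ctrl and 24.2% to 32.6% in cKO, and *Gzmb* contributed 20.8% to 39.7% and 30.3% to 39.1%. *Prf1* ranged from 4.52% to 11.8% in Ctrl and from 2.17% to 24.2% in cKO, where the highest share was that of replicate 3.

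Libraries of the same genotype also differed from one another, and the genes did not all follow the same order. As a description over the 8 libraries, Pearson's r of log2(CPM + 0.1) was 0.94 for *Gzma* with *Gzmb*, *Gzmc* or *Nkg7*, and 0.58 for *Gzmb* with *Prf1*. With the genotype means removed, r was 0.80 for *Gzma* with *Nkg7*, 0.65 for *Gzma* with *Gzmb* and -0.53 for *Gzmb* with *Prf1*. These points share library and depth, and the counts of *Prf1* in cKO were 8 or fewer.

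Granzyme M (*Gzmm*), a further granzyme encoded apart from the others, was not separated by genotype. It had 1.77, 1.39, 1.53 and 0.988 CPM in Ctrl and 1.09, 0.870, 1.48 and 1.02 CPM in cKO, so the genotypes overlapped, with a log2 fold change of -0.34, a standard error of 0.25 and an adjusted p of 0.455 by edgeR. The mean log2 ratio to *Gzmm*, cKO minus Ctrl, was -1.83 for *Gzma*, -1.68 for *Gzmc*, -1.40 for *Nkg7*, -1.27 for *Gzmb* and -1.22 for *Prf1*. *Gzmm* was chosen after the values were seen, and these differences are a description without a test.

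In RNA of whole uteri, most other genes listed for the granule had smaller log2 fold changes. In the list of granule cargo and its processing, 9 of 11 genes were tested, all 9 had a negative log2 fold change with a median of -0.22, and 2 had an adjusted p under 0.05, where 2.71% of all genes tested passed on the lower side and 2.62% on the higher side. The 2 were *Srgn*, the proteoglycan core on which granzymes and perforin are packed, at 97.0 ± 5.67 against 76.1 ± 7.18 CPM (log2 fold change -0.35, adjusted p 0.0149), and *Lamp2* of the lysosomal membrane, at 504 ± 17.2 against 432 ± 16.9 CPM (log2 fold change -0.22, adjusted p 0.0331). Both are made by many cell types. The 2 calls became 0 without Ctrl replicate 1, without Ctrl replicate 3, with a score of fat cell markers as a covariate and without cKO replicates 1, 2 and 3, and 1 without Ctrl replicate 2 or without cKO replicate 1, 2 or 3. *Srgn* had adjusted p values of 0.0588, 0.0502, 0.0740 and 0.199 in the 4 fits with 0 calls. Cathepsin W (*Ctsw*), a protease found mainly in NK and cytotoxic T cells, had a log2 fold change of -1.26 with an adjusted p of 0.0941 by edgeR.

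Genes of granule transport and fusion were tested in 8 of 9 cases. None passed an adjusted p under 0.05 by edgeR with the main settings in either direction, with 2 at an unadjusted p under 0.05. In other edgeR fits, 2 passed without cKO replicate 4, 1 without a filter and 1 with replicate number as a block. DESeq2 gave 1 and limma-voom 0. Their median was a log2 fold change of 0.01. The summed level of this list was 367 to 380 CPM in Ctrl, so a change in a few cells would hardly show here either. The smallest adjusted p was that of *Lyst*, which controls lysosome size, at 0.0651 with a log2 fold change of -0.28. Among the serpins that block granzymes, where 2.71% of all genes tested passed on the lower side, 1 of 3 tested genes fell, *Serpinb9*, an inhibitor of granzyme B, from 31.1 ± 1.75 to 25.7 ± 0.969 CPM (log2 fold change -0.28, adjusted p 0.0322 by edgeR). This call was kept without Ctrl replicate 4 or cKO replicate 4 and was lost in the 6 other fits that left out 1 library, with adjusted p values up to 0.0931, and with a score of fat cell markers as a covariate (0.368). Of 3 tested death ligands and cytokines, none passed by edgeR, DESeq2 or limma-voom, with 2 at an unadjusted p under 0.05 by edgeR. *Ifng*, *Fasl* and *Lta* were below the filter, with 4, 7, 1 and 1 counts of *Ifng* in Ctrl and 0, 0, 1 and 0 in cKO.

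Transcription factors of cytotoxic cells were tested in 5 cases, with 1 lower in cKO by adjusted p, as were 2.71% of all genes tested. It was *Bhlhe40*, a factor of many cell types, at 38.6 ± 0.888 against 32.0 ± 2.59 CPM (log2 fold change -0.27, adjusted p 0.0410 by edgeR). This call was kept without Ctrl replicate 2 or cKO replicate 4 and was lost in the 6 other fits that left out 1 library, with adjusted p values up to 0.123, and with the fat score (0.537). *Tbx21*, which encodes T-bet, an activator of granzyme and perforin genes, had 0.725, 1.08, 0.321 and 0.329 CPM in Ctrl and 0.272, 0.134, 0.277 and 0.175 CPM in cKO. Its genotypes did not overlap, while its log2 fold change of -1.47 had an adjusted p of 0.0920. *Runx3*, *Prdm1* and *Id2* had log2 fold changes of 0.21, -0.20 and -0.04, and *Eomes* was below the filter.

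**Figure D3:**
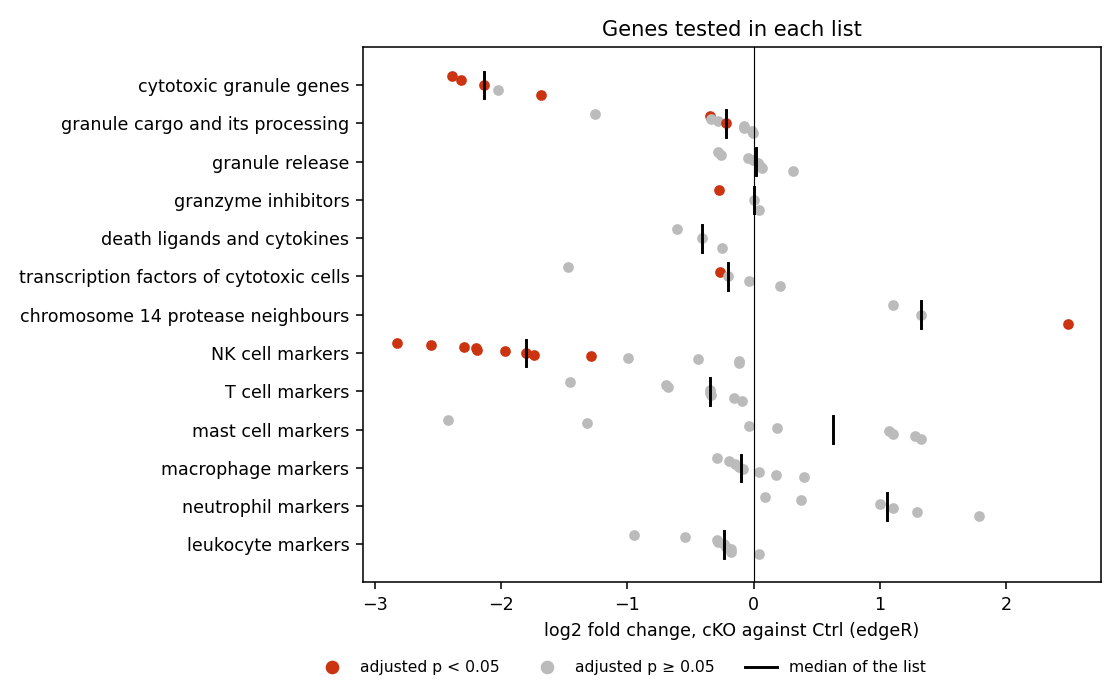
Log2 fold change of cKO against Ctrl by edgeR (horizontal axis) for each tested gene of 13 lists (rows), in red where the adjusted p was under 0.05 and grey otherwise, with the median of each list as a black bar. The cytotoxic granule genes and the NK cell markers have medians of -2.14 and -1.80, and the chromosome 14 protease neighbours have a median of 1.33.

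Proteases next to the granzymes on chromosome 14 were higher in cKO or were not called. Mast cell proteases and cathepsin G are encoded beside *Gzme*, and of 9 genes in this list 3 were tested and had positive log2 fold changes, 1.33 at the median. Of the 3, 1 had an adjusted p under 0.05 by edgeR, where 2.62% of all genes tested passed on the higher side. Over all genes tested, 49.9% had a negative log2 fold change. *Mcpt2*, a protease of mucosal mast cells, rose from 0.129 ± 0.0562 to 0.762 ± 0.345 CPM, with 2, 4, 3 and 7 counts in Ctrl and 31, 18, 13 and 24 in cKO. Its log2 fold change was 2.48 with a standard error of 0.45 and an adjusted p of 0.00722 by edgeR, and with the fat score the log2 fold change was 2.69 with an adjusted p of 0.0726. *Mcpt4* and *Cma1*, also mast cell proteases, had log2 fold changes of 1.33 and 1.11 with adjusted p values of 0.0812 and 0.0864 by edgeR, and of the 3 genes 2 passed by DESeq2, 3 by limma-voom and 3 without Ctrl replicate 3. Sequence shared between *Mcpt2* and its relatives in the cluster was not measured. Of 8 tested mast cell markers, 5 had positive and 3 negative log2 fold changes. The 3 negative by edgeR were *Tpsab1* (-2.42, adjusted p 0.136), *Hdc* (-1.32, 0.112) and *Kit* (-0.04, 0.889). The list therefore did not move in the same direction throughout. None passed by edgeR with the main settings, with 6 at an unadjusted p under 0.05. In other edgeR fits, 2 passed without Ctrl replicate 3, and 1 each without Ctrl replicate 2, without cKO replicate 4 and with robust = FALSE. DESeq2 gave 2 and limma-voom 3. *Gata2*, the most abundant of the markers, had 262 ± 10.4 CPM in Ctrl and 298 ± 29.3 CPM in cKO.

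NK cell markers were lower together with the granule genes. All 13 were tested, all 13 had negative log2 fold changes with a median of -1.80, and 9 were DE, where 0.636% of all genes tested were DE and lower in cKO. An adjusted p under 0.05 was reached by 5 without Ctrl replicate 1, by 6 to 9 without any other single library, by 2 with the fat score and by 3 of the 5 still tested at a filter of CPM over 1. *Il2rb*, a subunit of the interleukin 2 and 15 receptors, fell from 6.59 ± 2.24 to 1.89 ± 0.286 CPM (log2 fold change -1.80, adjusted p 0.000911 by edgeR). *Xcl1*, a chemokine of NK cells, fell as well (log2 fold change -2.56, adjusted p 0.00205). *Ncr1*, which encodes the NK receptor NKp46, fell (log2 fold change -2.29, adjusted p 0.00236), as did *Klrc1*, an inhibitory receptor of NK cells (log2 fold change -2.83, adjusted p 0.00579). *Klrc1* passed the filter through its Ctrl libraries, at 0.285 to 0.662 CPM. In cKO it had 2, 2, 1 and 2 counts, under the limit set by a count of 0, so the size of its change is uncertain. *Itga1*, the most abundant gene of the list at 85.5 ± 10.3 and 78.8 ± 4.76 CPM, is also expressed by stromal and muscle cells, and did not pass (log2 fold change -0.12, adjusted p 0.445).

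Relative to 6 NK receptors, but not to the whole list of NK cell markers, the level of the granule genes overlapped between the genotypes. The summed CPM of 6 receptor genes (*Ncr1*, *Klrb1c*, *Klrk1*, *Klrd1*, *Klrc1* and *Klre1*) was 4.91 to 10.4 in Ctrl and 1.45 to 2.64 in cKO. The sum of the 5 granule genes over this sum was 0.740, 1.30, 0.961 and 1.22 in Ctrl and 1.03, 0.797, 0.702 and 0.979 in cKO. These ratios overlapped, with means of 1.06 ± 0.257 and 0.878 ± 0.154 (SD, n = 4). The 6 genes were chosen after the values were seen, and the ratio is a description without a test. Over all 13 listed NK cell markers, a sum in which *Itga1* is the largest part, the ratio did separate the genotypes, at 0.0569 to 0.0791 in Ctrl and 0.0108 to 0.0281 in cKO.

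**Figure D4:**
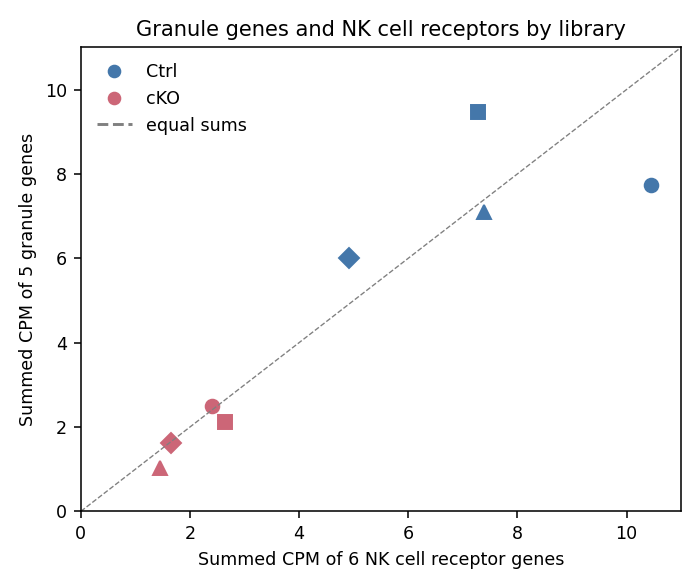
Summed CPM of the 5 tested granule genes (vertical axis) against the summed CPM of 6 NK cell receptor genes (horizontal axis) in each library, with Ctrl in blue, cKO in red, a symbol for each replicate number and a dashed line of equal sums. The 4 cKO points lie at 1.02 to 2.49 CPM, apart from the 4 Ctrl points at 6.01 to 9.48 CPM, and points of both genotypes scatter about the line.

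Markers of other leukocytes were not called by edgeR with the main settings, though some were in other fits. Log2 fold changes of T cell markers were negative in 8 of 8 tested genes (median -0.35), and the smallest adjusted p was 0.0642, for *Cd3d*, a subunit of the T cell receptor complex (log2 fold change -1.46). At an unadjusted p under 0.05 there were 2. In other edgeR fits, 1 passed without Ctrl replicate 4 and 1 with replicate number as a block. DESeq2 gave 1 and limma-voom 0. *Cd4*, the most abundant, had 2.28 ± 0.927 CPM in Ctrl and 2.04 ± 0.260 CPM in cKO. *Cd8a*, the co-receptor of cytotoxic T cells, was below the filter with 29, 30, 5 and 1 counts in Ctrl and 3, 4, 10 and 2 in cKO. Its 2 highest libraries, Ctrl replicates 1 and 2, were also the 2 highest for *Nkg7* and *Prf1*. The summed level of the 11 listed T cell markers was 6.97 to 12.7 CPM in Ctrl and 5.96 to 8.35 CPM in cKO, which overlap, and the part of T cells in the result was not tested. None of 8 macrophage markers passed by edgeR, at an adjusted or unadjusted p under 0.05, or by the other tools. Their median log2 fold change was -0.10, and *Csf1r*, the most abundant over both genotypes, had 45.0 ± 9.65 CPM in Ctrl and 46.3 ± 6.42 CPM in cKO. Of 9 general leukocyte markers 8 had negative log2 fold changes, with a median of -0.24. None passed by edgeR with the main settings, with 2 at an unadjusted p under 0.05. In other edgeR fits, 1 passed without Ctrl replicate 4, 2 with the replicate block and 1 with robust = FALSE. With counts thinned to the smallest total, 1 passed by edgeR. DESeq2 gave 1 and limma-voom 0. The smallest adjusted p of this list was 0.0509 by edgeR, for *Cd52* (log2 fold change -0.95). *Lcp1*, the most abundant, had 67.4 ± 3.23 CPM in Ctrl and 69.5 ± 2.03 CPM in cKO. All 6 tested neutrophil markers had positive log2 fold changes, with a median of 1.05. None passed by edgeR, with 3 at an unadjusted p under 0.05, and 1 passed without Ctrl replicate 2, 1 by DESeq2 and 0 by limma-voom, and *S100a9*, the most abundant over both genotypes, had 2.85 ± 1.73 and 3.02 ± 1.24 CPM.

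Fat cell markers set 3 cKO libraries apart. The summed level of 7 markers was 42.2 to 59.7 CPM in Ctrl, 139, 264 and 151 CPM in cKO replicates 1, 2 and 3, and 45.7 CPM in cKO replicate 4. *Adipoq*, a hormone made by fat cells, had 0.0350 CPM in cKO replicate 4 and 11.7 to 23.7 CPM in the other 3 cKO libraries. All 6 tested fat markers had positive log2 fold changes, with a median of 5.77. None passed by edgeR with the main settings, with 6 at an unadjusted p under 0.05. In other edgeR fits, 6 passed without cKO replicate 4, 1 without Ctrl replicate 2, 5 with robust = FALSE and 4 with the replicate block. DESeq2 gave 5 and limma-voom 0. *Pnpla2*, the most abundant, had 45.9 ± 7.32 and 55.6 ± 8.39 CPM. In cKO replicate 4 the sum of the granule genes lay within the range of the other cKO libraries, at 1.61 CPM against 1.02 to 2.49 CPM, while *Prf1*, with 1 count, was lower there than in the other 3. With cKO replicate 4 as the only cKO library, whose spread was then taken from the Ctrl libraries, the log2 fold changes were -2.28 for *Gzma*, -1.73 for *Gzmb*, -3.64 for *Gzmc*, -1.92 for *Nkg7* and -3.95 for *Prf1*, and 0 of the 5 were DE by edgeR, although 4 had an unadjusted p under 0.05. With a fat score (the mean standardised log2 level of 6 fat markers) as a covariate, the log2 fold changes were -2.50 for *Gzma*, -1.71 for *Gzmb*, -3.09 for *Gzmc*, -2.38 for *Nkg7* and -4.28 for *Prf1*, none smaller in size than without it. The standard errors were larger, 0.47 against 0.30 for *Gzma* and 0.69 against 0.41 for *Gzmc*, and only *Gzma* was DE, with an adjusted p of 0.0311 by edgeR. The fat score was 0.978 to 1.39 in cKO replicates 1, 2 and 3, -0.782 in cKO replicate 4 and -0.910 to -0.258 in Ctrl. It nearly follows genotype, so the log2 fold changes of this fit rest largely on cKO replicate 4. This fit cannot separate the score from genotype.

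Genes with the pattern most like that of the 5 granule genes over the 8 libraries were taken from 14625 other tested genes with a mean of at least 1 CPM in either genotype. By Pearson's r with the mean standardised log2(CPM + 0.1) of the 5, they were *Igfbp6* (0.987), *Gli1* (0.986), *Cygb* (0.985), *Cbr3* (0.982) and *Adcy7* (0.982). *Gli1*, a transcription factor and target of hedgehog signaling, fell from 80.0 to 29.5 CPM, and *Igfbp6*, a binding protein of insulin-like growth factors, from 80.4 to 53.3 CPM. These levels are many times those of the granule genes, and the likeness is in the order and spacing of the libraries, which includes the genotype difference.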

How the data were processed

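Total RNA from whole uteri at PD10 was sequenced from stranded mRNA libraries. Reads were trimmed with Trimmomatic, aligned with HISAT2 (GRCm38) and assigned to genes with featureCounts by the authors, whose deposited raw counts per Entrez gene were used here. Versions, the annotation and the strand setting of counting are not given in the sources used here. The authors also deposited their own comparison, with log2 fold changes, an F score and p-values, which served only to pair gene IDs with symbols, and a table of normalized values that was not used.

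Counts were analysed with R 4.3.3 and edgeR 4.0.16. Genes above 0.2 CPM in 4 or more libraries were normalized by TMM and tested with glmQLFit (robust = TRUE) and glmQLFTest, with a prior count of 0.125. Adjusted p values are Benjamini-Hochberg values over all 16658 genes. The standard error is the log2 fold change divided by the square root of F. Single genes were also tested by a two-sided exact permutation test. Alternatives used limma 3.58.1, DESeq2 1.42.0, other filters, normalizations and designs. On simulated counts for these 16658 genes with 4 against 4 libraries, edgeR recovered 197 of 200 changed genes with 1 false call. It made 1 call where no gene changed. The changed genes were drawn at random from all tested genes and changed 4-fold. The share recovered therefore does not describe genes as low as the granule genes. No library pair was as alike as sampling noise.

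The genes and lists were chosen with earlier results of these data known. The text names all 10 granule genes, *Ezh2*, up to 4 genes past the threshold in each list, the most abundant gene of each marker list, and the 5 genes of most similar pattern. Genes named after their values were seen are *Gzmm*, *Ctsw*, *Lyst*, *Ifng*, *Fasl*, *Lta*, *Tbx21*, *Runx3*, *Prdm1*, *Id2*, *Eomes*, *Mcpt4*, *Cma1*, *Tpsab1*, *Hdc*, *Kit*, *Cd3d*, *Cd8a*, *Cd52*, *Adipoq*, *Cdc20b* and the 6 NK receptors. No source says whether mice shared a litter, and the labels give no batch.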

Additional observations from a re-analysis of the deposited data

Results flagged for a closer look

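Of 66 groups of 4 libraries examined for 1 library far from the others, 2 stood out, and chance alone gives about 1 in 20. *Gzmk* in cKO had 0.0335 CPM in replicate 2, from 1 count, and none in the other 3 libraries. *Bhlhe40* in cKO had 28.2 CPM in replicate 2, against 33.0 to 33.9 CPM in the other 3.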

How the results depend on the processing

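All 5 granule genes had a negative log2 fold change under every alternative in which they were tested. The number of DE granule genes was 4. It was 3 with limma-voom, without *Nkg7*, and 3 to 5 when 1 library was left out. With a filter at a CPM over 1, under which *Gzmc*, *Prf1* and *Nkg7* were not tested, it was 2. Adding the fat score to the model left 1, and leaving out cKO replicates 1, 2 and 3 left 0, while over all 16658 genes these fits gave 52 and 22 DE genes, against 217. With the fat score the log2 fold changes of the 5 genes were -1.71 to -4.28, none smaller in size, and the standard errors were larger. Apart from cKO replicate 4 the fat score followed genotype, so this fit cannot separate the score from genotype. In the lists of related genes, 5 genes had an adjusted p under 0.05. There were 8 with DESeq2 and 8 with the replicate block, 1 to 8 when 1 library was left out (1 without Ctrl replicate 1, 8 without cKO replicate 4), and 0 with the fat score or without cKO replicates 1, 2 and 3. In the marker lists, 12 genes passed. There were 23 with DESeq2, 19 with robust = FALSE, 6 at a CPM over 1, 20 with the replicate block, 7 to 19 when 1 library was left out (7 without Ctrl replicate 1, 19 without cKO replicate 4), 3 with the fat score and 0 without cKO replicates 1, 2 and 3. Apart from the filter and the smaller sets of libraries, the cause was not tested. Same-numbered libraries deviated together with r of 0.02, 0.11, -0.0035 and 0.19, so the numbers were not taken to pair the mice, and 5 granule genes were DE with the replicate block. *Gzma* was called in 18 of 19 alternatives, *Gzmb* in 17 of 19, *Gzmc* in 16 of 18, *Nkg7* in 12 of 18 and *Prf1* in 5 of 18. Depth limits *Gzmk* and *Gzmd* to *Gzmg*, with few or no counts per library.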
